A study of Homo sapiens with 10 samples.

Results

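The transcriptome of HEK-293 cells was compared between cells transfected with a small interfering RNA (siRNA) against the long non-coding RNA PAXIP1-AS1 and cells given a control siRNA, both at 100 nM and both lysed 48 h after transfection. The comparison held 4 of the 10 arrays of the series, the 2 with the PAXIP1-AS1 siRNA and the 2 with the control siRNA at that dose, and they were chosen by their titles. The other 6 arrays held 2 with LOC440173 siRNA 1 at 10 nM, 2 with LOC440173 siRNA 2 at 10 nM and 2 with the control siRNA at 10 nM. All cells were transfected with RNAiMax, and the control was a commercial negative control duplex with an undisclosed sequence. PAXIP1-AS1 was targeted by 1 siRNA, so no other duplex against the same RNA was compared. HEK-293 is an established human embryonic kidney line that carries adenoviral E1 genes, whose E1B product binds p53, and it expresses some neuronal genes. The labels call the arrays biological replicates without describing separate cultures, so the p-values measure only the spread between these samples.

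PAXIP1-AS1, listed as PAXIP1-DT in current annotation, is transcribed divergently from the start region of PAXIP1. PAXIP1 (PTIP) is an adaptor of the histone H3 lysine 4 methyltransferase complexes built on KMT2C and KMT2D, and it also takes part in the DNA damage response. Some long non-coding RNAs act on the gene beside which they start and others act elsewhere, which is what an array study of silenced cells can compare. The shared start region is shown because it carries the targeted transcript and the start of PAXIP1. It spans chr7:155003183-155003482 on the plus strand of GRCh38.p14, is taken from RefSeq, and has the first 50 transcribed bases in capitals.
PAXIP1-DT: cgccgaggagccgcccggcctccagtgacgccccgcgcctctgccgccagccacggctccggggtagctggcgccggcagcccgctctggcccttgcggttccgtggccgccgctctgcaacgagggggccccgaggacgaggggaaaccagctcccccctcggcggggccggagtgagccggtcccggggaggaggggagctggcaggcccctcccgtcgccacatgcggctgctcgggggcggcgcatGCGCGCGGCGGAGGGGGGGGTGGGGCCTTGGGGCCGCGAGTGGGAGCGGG
The annotated start of PAXIP1 lies within this window, on the other strand.

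No probe set was assigned to PAXIP1-AS1, so the silenced RNA itself was not analysed here and the knockdown has no check in these data. PAXIP1 measured 10.56 and 10.59 (log2) with the PAXIP1-AS1 siRNA, against 10.56 and 10.56 in the control at 100 nM. The difference was 0.02 (SE 0.048, 95% interval -0.09 to 0.13, adjusted p = 0.919). None of the 20 genes with a probe set nearest to PAXIP1-AS1, 10 on each side and PAXIP1 among them, passed the test, and their median difference was 0.02. They ran between -0.23 for the dipeptidyl peptidase-like gene DPP6, which was dim at 5.09 against 5.32, and 0.13 for GALNTL5. The actin-related gene ACTR3B came closest (-0.21, adjusted p = 0.106) and passed under 4 alternative analyses. Among the 11 measured members of the PAXIP1 and KMT2C/KMT2D complex list, 0 passed the test, with a median of 0.02 and single values from -0.10 for WDR5, the histone-binding scaffold, to 0.13 for TP53BP1, a partner of PAXIP1 at DNA breaks.

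Levels were log2 values of 32321 probe sets per array, with array medians between 7.06 and 7.12, and 1 probe set per gene left 18404 genes. A gene is named called, higher or lower, at an adjusted p under 0.05 in a limma fit over all 10 arrays, and a log2 difference is the PAXIP1-AS1 siRNA minus the control at 100 nM. Of the labelled line's 8 markers, 6 lay at or above the median gene level of 7.66, with vimentin (VIM) at 11.3. PAX2 at 6.83 and KRT8 at 7.39 lay below it. Hepatocyte, keratinocyte and blood markers all lay below it, the highest being KRT14 at 7.48. Of the fibroblast and endothelial markers COL1A1 (7.99) lay above it. Among markers outside the line, CYP3A4 (0.46, at a level of 3.59), the proximal tubule receptor LRP2 (0.60, at 8.55) and podocalyxin (PODXL, -0.33, at 9.07) were called, and their part in the results was not tested. On bulk arrays fewer cells of a kind and less RNA per cell cannot be told apart.

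With the PAXIP1-AS1 siRNA 850 genes were called (4.62% of those tested), 526 higher (2.86%) and 324 lower (1.76%). The changes were small, with a median of 0.39 among the higher and -0.34 among the lower genes, while the median over all genes was -0.01. At least 1.5-fold changes were found for 83 higher and 29 lower genes, and at least 2-fold changes for 16 higher and 4 lower genes. The 4 were ACTA2, NEFL, EDA2R and SPATA18. All 850 had groups that did not overlap, which was also so for 51.3% of all genes. The control siRNA at 100 nM against 10 nM gave 0 called genes by limma and 692 at an unadjusted p under 0.05, where the PAXIP1-AS1 siRNA gave 3357. Called genes were mostly well expressed, with 8.59% called in the brightest of 4 equal level classes and 0.609% in the dimmest. The smallest p that exact permutation of 2 and 2 arrays allows is 0.333, so the calls rest on the spread pooled over 5 groups. The count was 117 and 110 without PAXIP1-AS1 replicate 1 and replicate 2, 135 and 187 without control replicate 1 and replicate 2 at 100 nM, 477 without either array of LOC440173 siRNA 1, and 181 in a fit limited to the compared groups. No called gene changed direction under any of the 20 alternatives, but most of them could not have shown a change. Many left the compared difference itself unchanged, and groups that do not overlap keep their direction when 1 array is dropped. Without each of the 4 compared arrays in turn 94 calls held, and every call with an adjusted p above 0.00402 was lost without at least 1 of them.

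**Figure D1:**
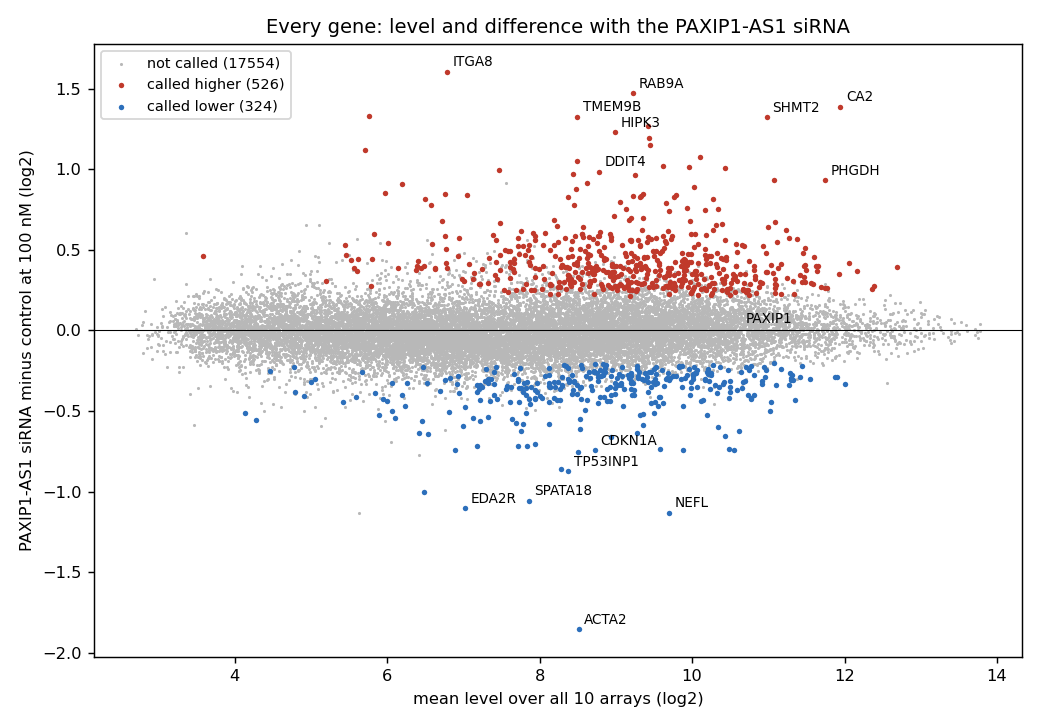
Each point is 1 of 18404 genes, with its mean level over all 10 arrays (log2) on the x axis and the PAXIP1-AS1 siRNA minus the control at 100 nM (log2, 2 arrays each) on the y axis; red points are the 526 called higher and blue points the 324 called lower. ITGA8 stood highest at 1.60, ACTA2 lowest at -1.85, and PAXIP1 lay near 0.

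The largest rise was that of ITGA8, the integrin alpha 8 chain that pairs with beta 1 in the developing kidney. It measured 7.89 and 8.04 with the PAXIP1-AS1 siRNA, against 6.42 and 6.30 in the control at 100 nM, and rose 3.04-fold (log2 1.60, SE 0.12, adjusted p = 0.000626). Both treated arrays lay more than 1 log2 unit above both controls. The late endosomal GTPase RAB9A measured 9.96 and 10.02 with the siRNA, against 8.48 and 8.55 in the control (1.47, SE 0.065, adjusted p = 8.53e-05). Carbonic anhydrase CA2, which interconverts carbon dioxide and bicarbonate, measured 12.52 and 12.53, against 11.17 and 11.11 in the control (1.39, SE 0.048, adjusted p = 2.8e-05). Neither gene's groups came near each other. SHMT2, the mitochondrial serine hydroxymethyltransferase that feeds one-carbon metabolism, measured 11.67 and 11.69, against 10.33 and 10.38 in the control (1.32, SE 0.049, adjusted p = 2.9e-05). Its replicates within a group differed far less than the groups did.

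The rest of the 15 largest rises among genes that reached the median level in at least 1 of the compared groups held genes of endosomes, mitochondria and signalling. TMEM9B, a lysosomal membrane protein, rose by 1.33, and STARD3NL, a sterol-binding protein at contacts of the endoplasmic reticulum with late endosomes, by 1.27. The mitochondrial genes were NDUFB5, a subunit of respiratory complex I (1.19), HINT2, a mitochondrial nucleotide hydrolase (1.01), and HSD17B10, a mitochondrial dehydrogenase that is also part of RNase P (1.01). ACAT2, a cytosolic thiolase at the entry of sterol synthesis, rose by 1.02. The protein kinase HIPK3 rose by 1.23, the ubiquitin ligase RNF167 by 1.15, the membrane metalloprotease ADAM9 by 1.07, the translation factor partner MIF4GD by 1.05 and the TEAD cofactor VGLL3 by 0.99. Adjusted p of all 15 lay between 2.8e-05 and 0.000685, and all 15 stayed called under every alternative that tested them, which was 19 for ITGA8 and VGLL3 and 20 for the others. Below the median level ETV1, an ETS transcription factor (1.33, adjusted p = 0.00218), and DNAJC15, a mitochondrial cochaperone (1.12, adjusted p = 0.00121), also rose by at least 2-fold; both were named after their values were seen.

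The largest fall was that of ACTA2, smooth muscle alpha actin. It measured 7.36 and 7.43 with the PAXIP1-AS1 siRNA, against 9.22 and 9.28 in the control at 100 nM, which is 27.7% of the control (-1.85, SE 0.062, adjusted p = 2.8e-05). No other called gene moved as far in either direction. NEFL, the light neurofilament chain, measured 9.07 and 9.10, against 10.16 and 10.27 in the control (-1.13, SE 0.066, adjusted p = 0.000264). SPATA18, a mediator of mitochondrial quality control and a p53 target, measured 7.25 and 7.22, against 8.27 and 8.32 (-1.06, SE 0.065, adjusted p = 0.000297). In both genes the treated arrays were about 1 log2 unit below the controls. TP53INP1 (-0.87), FAS (-0.86), CDKN1A (-0.75) and TP53I3 (-0.72) are p53 targets as well, and TNFRSF10D (-0.75) is a decoy receptor for the death ligand TRAIL. The other 7 of the 15 falls were the small GTPase RAP1B (-0.74), MORN2 (-0.74), C4orf46 (-0.73), the Polycomb-related SCML1 (-0.73), the microtubule end-binding MAPRE3 (-0.72), CFAP263 (-0.71) and the orphan receptor GPR50 (-0.66). Adjusted p of all 15 lay between 2.8e-05 and 0.0134. FAS, RAP1B, MORN2, MAPRE3 and CFAP263 lost the call without at least 1 compared array (adjusted p up to 0.0666, 0.0661, 0.0759, 0.0715 and 0.109), and RAP1B also with the mean of its several probe sets (adjusted p = 0.362). GPR50 lost it under a required 1.2-fold minimum, and the other 9 held under all 20 alternatives.

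**Figure D2:**
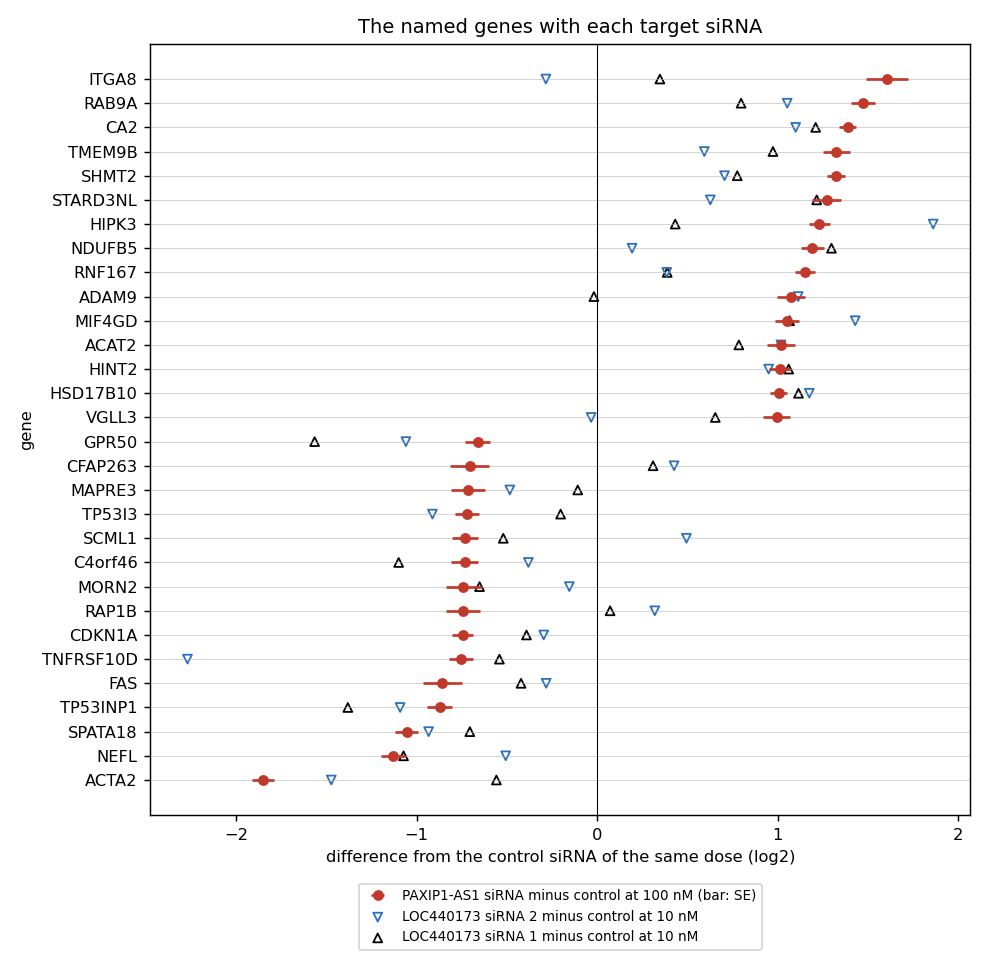
Rows are the 15 largest rises and 15 largest falls by the naming rule; red points show the PAXIP1-AS1 siRNA minus the control at 100 nM (log2, bar: SE, 2 arrays a group), triangles the LOC440173 siRNAs minus the control at 10 nM. RAP1B and CFAP263 were lower with the PAXIP1-AS1 siRNA and above 0 with both LOC440173 siRNAs, while CA2, HINT2 and HSD17B10 lay close together for all target siRNAs. The fall of RAP1B was not called with the mean of its several probe sets.

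The p53 target genes, which the tumour suppressor switches on to stop the cell cycle, repair DNA or start cell death, had the largest called share of all 77 lists and families. Of the list's 27 measured members 14 were lower and 0 higher, or 51.9%, where 4.62% of all genes were called and 1.76% were lower. Targets of p53 outside the list were not counted. Their median difference was -0.37, against -0.01 over all genes, and 26 of 27 were negative. The list was chosen with an earlier summary of these data known, in which p53 targets had already stood out, so its direction is not independent evidence.

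Among the cell cycle and damage response targets, CDKN1A, the p21 inhibitor of cyclin-dependent kinases, measured 8.29 and 8.21 with the PAXIP1-AS1 siRNA, against 8.94 and 9.05 in the control at 100 nM. The change was -0.75 (SE 0.058, adjusted p = 0.000852). Both treated arrays lay below both controls. MDM2, the ubiquitin ligase that degrades p53, measured 10.71 and 10.73, against 11.11 and 11.18 in the control (-0.42, SE 0.063, adjusted p = 0.0122). The DNA damage sensors DDB2 (-0.40) and XPC (-0.29) of nucleotide excision repair, the RNA-binding regulator ZMAT3 (-0.37) and the AKT inhibitor PHLDA3 (-0.58) were lower too. Among the death and mitochondrial targets, EDA2R, a receptor of the tumour necrosis factor family, measured 6.49 and 6.54 with the siRNA, against 7.55 and 7.69 in the control (-1.10, SE 0.097, adjusted p = 0.00146), which places it below the median level. The pore-forming BAX measured 10.61 and 10.54, against 11.01 and 10.99 (-0.43, SE 0.064, adjusted p = 0.0122). Groups did not overlap for either gene. The nuclease AEN fell by 0.52 and the TRAIL receptor TNFRSF10B by 0.47.

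Of the 13 p53 targets that did not pass, TIGAR, a brake on glycolysis (-0.30, adjusted p = 0.0509), the cytokine GDF15 (-0.43, adjusted p = 0.0572) and SESN1 (-0.32, adjusted p = 0.0621) came closest. PMAIP1 (NOXA) at 0.09 and the phosphatase PPM1D at -0.02 did not differ by more than the error. CDKN1A, SPATA18, TP53INP1, TP53I3, EDA2R, TNFRSF10B and AEN stayed called without each of the 4 compared arrays. The count of 14 was 8 without either PAXIP1-AS1 array, 8 without control replicate 1 and 7 without control replicate 2 at 100 nM, 9 with only the compared groups, 5 under a required 1.2-fold minimum and 19 with an intensity trend and robust prior. The median stayed between -0.40 and -0.34. A p53 site was searched as 2 copies of the decamer, 0 to 13 bases apart, on both strands of the promoter windows. The windows ran from 250 bases before to 50 after the start. The site was found in 0 of 22 targets' windows and in 3 of 14230 windows of all genes (0.0211%). A single copy was in 1 of 22 (4.55%) and in 846 of all windows (5.95%).

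**Figure D3:**
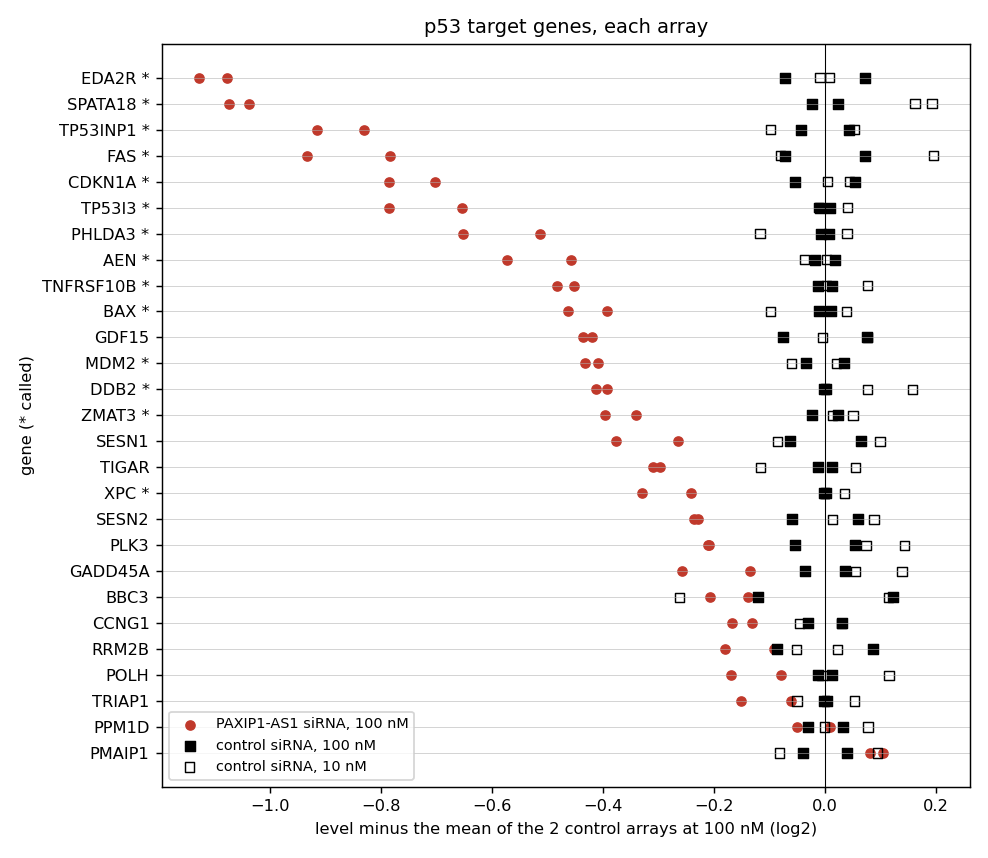
Each row is a p53 target, with the level of single arrays minus the mean of the 2 control arrays at 100 nM (log2) on the x axis; red circles are the PAXIP1-AS1 siRNA, filled squares the control at 100 nM, open squares the control at 10 nM, and asterisks mark called genes. The red circles lay left of the filled squares in nearly all rows, and PMAIP1 at the bottom lay to the right.

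Receptors and regulators of apoptosis were called in 5 of 32, 4 lower and 1 higher (15.6%, median -0.02). The 4 lower genes were the receptors FAS, TNFRSF10B and TNFRSF10D and the effector BAX, so 3 of them are p53 targets already counted. FAS measured 7.63 and 7.77 with the PAXIP1-AS1 siRNA, against 8.49 and 8.63 in the control at 100 nM, and its groups did not overlap. TNFRSF10D measured 8.45 and 8.46, against 9.19 and 9.22 in the control. BID, which links death receptors to mitochondria, was higher (0.35, adjusted p = 0.0298). MCL1 (0.21, adjusted p = 0.121), BCL2L1 (-0.03), APAF1 (0.03) and CASP8 (0.05), the core survival and execution genes, did not pass. Without each compared array TNFRSF10B and TNFRSF10D kept their calls, and FAS, BAX and BID lost theirs without at least 1.

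The cell cycle lists had few called members, and those other than CDKN1A were higher. The shares of replication and mitotic genes lay near the 4.62% of all genes and below the 8.59% of the brightest level class. CCNE2, the cyclin E2 of the G1/S step, measured 10.18 and 10.20 with the PAXIP1-AS1 siRNA, against 9.39 and 9.51 in the control at 100 nM (0.74, SE 0.092, adjusted p = 0.00612). It was the only higher member of 24 D-type cyclin and G1 kinase genes (8.33% called, CDKN1A included), whose median was -0.03. Of 42 DNA replication genes 2 were higher, the replicative helicase subunit MCM7 (0.48) and the helicase partner GINS1 (0.36), and 0 lower (4.76%, median 0.05). Of 36 mitotic genes the anaphase activator CDC20 (0.51) and the checkpoint protein BUB3 (0.36) were higher and 0 lower (5.56%). The mitotic median was 0.14, and 34 of 36 were positive, although 2 passed; the counts were 10 with dim genes left out, 11 with an intensity trend and robust prior and 1 without each compared array. The mitotic kinesin KIF14 was higher by 0.62. MCM7 and CDC20 held without each of the 4 compared arrays, and CCNE2, GINS1, BUB3 and KIF14 lost the call without at least 1. Of 28 DNA damage signalling and repair genes 1 was higher and 2 lower (10.7%, median 0.02). The mismatch repair protein MSH6 rose (0.46, adjusted p = 0.0124), and DDB2 and XPC fell, as given among the p53 targets. The thymine DNA glycosylase TDG, of the DNA methylation list, was higher too (0.58, adjusted p = 0.00612). Without at least 1 compared array these 4 calls were lost.

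Genes of the ATF4 programme and of amino acid metabolism rose in 10 of 29 measured members and fell in 0 (34.5%, against 4.62% of all genes called and 2.86% higher). ATF4 is the transcription factor of the integrated stress response, and its targets make, import and charge amino acids. The median difference of the list was 0.20 and 24 of 29 were positive. ATF4 itself did not pass (0.03, adjusted p = 0.827).

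The called serine and one-carbon enzymes were SHMT2, PHGDH and PSAT1. PHGDH, which commits glycolytic carbon to serine, measured 12.20 and 12.26 with the PAXIP1-AS1 siRNA, against 11.25 and 11.34 in the control at 100 nM (0.93, SE 0.051, adjusted p = 0.000212). Together with SHMT2, described above, it lay among the brightest genes of the list, with groups far apart. PSAT1, the next enzyme after PHGDH, rose by 0.40 (adjusted p = 0.0107). PSPH, which completes serine synthesis (0.15, adjusted p = 0.18), and MTHFD2, which follows SHMT2 (0.13, adjusted p = 0.203), did not pass. SLC7A11, the cystine importer, measured 10.77 and 10.88, against 9.95 and 10.04 in the control (0.83, SE 0.078, adjusted p = 0.00199). DDIT4 (REDD1), an inhibitor of the growth kinase mTORC1, measured 9.32 and 9.34, against 8.32 and 8.37 (0.99, SE 0.075, adjusted p = 0.000725). Neither gene's groups overlapped. Smaller rises were those of the lipoprotein receptor VLDLR (0.46), the secreted STC2 (0.39), the transcription factor ATF5 (0.34), asparagine synthetase ASNS (0.29) and the glutamine importer SLC1A5 (0.22).

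Of the 19 members that did not pass, TRIB3 and CHAC1 measured 0.39 each (adjusted p = 0.124 and 0.151), DDIT3 (CHOP) 0.25 (adjusted p = 0.208), ATF3 -0.16 (adjusted p = 0.571) and NUPR1 -0.37 (adjusted p = 0.161). NUPR1 was the lowest member. SHMT2, PHGDH, DDIT4 and SLC7A11 stayed called without each compared array. The count of 10 was 4 without either PAXIP1-AS1 array, 4 without control replicate 1 and 6 without control replicate 2 at 100 nM, and 5 with only the compared groups. Of 58 amino acid transporters by gene name 5 were higher and 0 lower (8.62%, median 0.03). Besides SLC7A11 and SLC1A5 these were the neutral amino acid carrier SLC6A15 (0.38) and the cationic amino acid carriers SLC7A2 (0.40) and SLC7A3 (0.32). Of 19 cytosolic aminoacyl-tRNA synthetases FARSA (0.67, adjusted p = 0.00148) and GARS1 (0.26, adjusted p = 0.0419) were higher and 0 lower. SLC6A15, SLC7A2, SLC7A3 and GARS1 lost the call without at least 1 compared array.

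The C/EBP-ATF response element, the composite site that ATF4 binds with C/EBP proteins, was searched as TGATGNAA on both strands of the promoter windows. It was found in 361 of 14230 windows (2.54%) and in 5 of 24 windows of the list (20.8%), but in 1 of the 8 members that were called higher and had a window (12.5%). The 5 stretches are shown, with the element in capitals and 20 flanking bases where the window held them, because they set apart the measured response of genes with the same site. They come from RefSeq (GRCh38.p14): ATF3 at chr1:212565196-212565243 on the plus strand, and ASNS at chr7:97872449-97872496, CHAC1 at chr15:40953242-40953289, SLC3A2 at chr11:62881716-62881748 and SLC7A1 at chr13:29595654-29595701 on the minus strand.
ATF3: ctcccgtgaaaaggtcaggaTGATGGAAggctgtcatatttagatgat
ASNS: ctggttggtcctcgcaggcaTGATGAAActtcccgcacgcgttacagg
CHAC1: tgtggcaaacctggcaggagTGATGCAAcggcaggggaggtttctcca
SLC3A2: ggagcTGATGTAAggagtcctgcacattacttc
SLC7A1: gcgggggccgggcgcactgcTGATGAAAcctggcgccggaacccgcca
Of these 5 genes ASNS was called (0.29), and the others measured -0.16 for ATF3, 0.39 for CHAC1, 0.03 for the amino acid exchanger chain SLC3A2 and 0.04 for the arginine importer SLC7A1. A match is a run of letters and not evidence of binding.

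**Figure D4:**
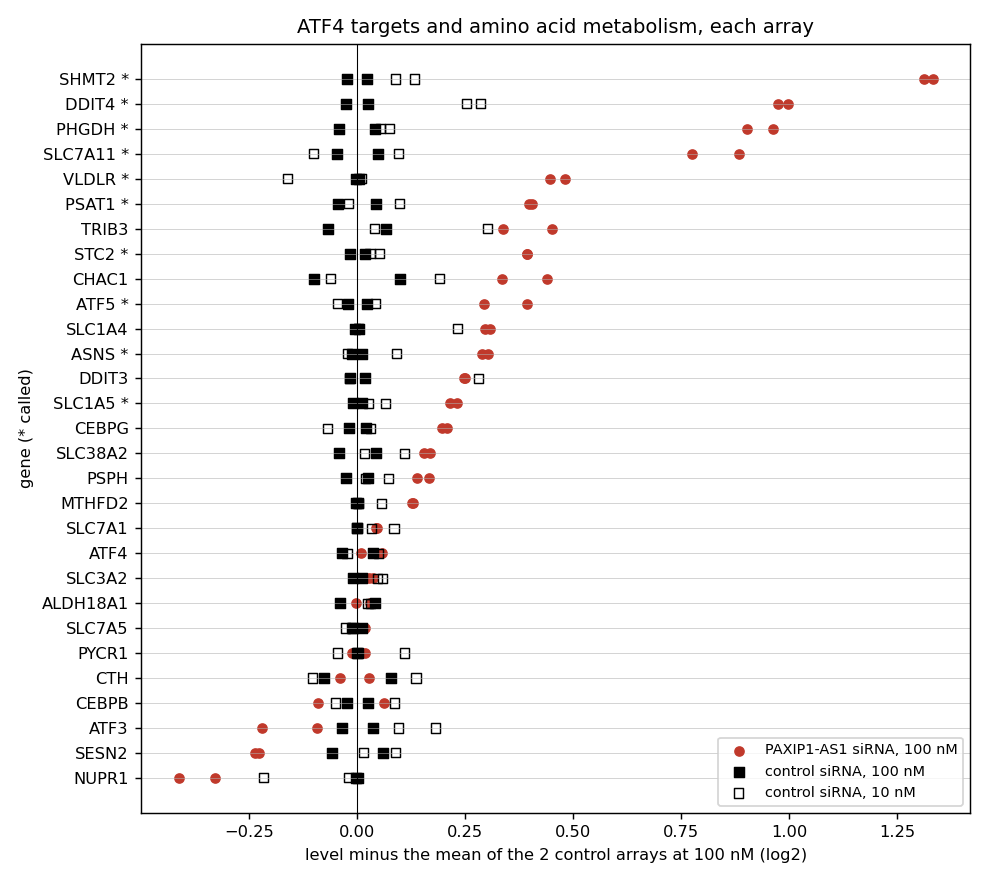
Each row is a gene of the ATF4 and amino acid list, with the level of single arrays minus the mean of the 2 control arrays at 100 nM (log2) on the x axis; red circles are the PAXIP1-AS1 siRNA, filled squares the control at 100 nM, open squares the control at 10 nM, and asterisks mark called genes. SHMT2, DDIT4, PHGDH and SLC7A11 at the top were well separated from both control doses, while NUPR1 lay lowest.

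Lipid, sugar and metal genes had smaller and mostly upward changes. Fatty acid synthesis was higher in 4 of 18 genes and lower in 0 (22.2%, median 0.08). Malic enzyme ME1, a source of NADPH, measured 9.71 and 9.73 with the PAXIP1-AS1 siRNA, against 9.17 and 9.17 in the control at 100 nM (0.55, SE 0.065, adjusted p = 0.00489). The acyl-CoA ligase ACSL4 (0.48) and the desaturases SCD5 (0.45) and FADS2 (0.33) were the others, while fatty acid synthase FASN did not pass (0.26, adjusted p = 0.0509). Of 22 sterol synthesis genes ACAT2 was called (4.55%, median 0.11). Of 31 glycolysis and hypoxia genes 5 were higher and 1 lower (19.4%, median 0.11): neuronal enolase ENO2 (0.57), the mitophagy receptor BNIP3 (0.35), the phosphofructokinases PFKM (0.34) and PFKP (0.26) and the oxygen sensor EGLN3 (0.31) rose, and NDRG1 fell by 0.29. Of 23 targets of the antioxidant factor NRF2 4 were higher and 0 lower (17.4%, median 0.12), namely SLC7A11 and ME1 again, the quinone reductase NQO1 (0.56) and ferritin light chain FTL (0.34). Metal genes were higher in 4 of 26 (15.4%, median 0.08), the metallothioneins MT1F (0.59), MT1X (0.46) and MT2A (0.40), which share much of their sequence, and the zinc importer SLC39A6 (0.49). ACAT2 and SLC7A11 held without each of the 4 compared arrays. The others named here did not: fatty acid counts were 0 without either PAXIP1-AS1 array or control replicate 1 and 2 without control replicate 2, and metal counts were 0 without either PAXIP1-AS1 array and 2 without either control array.

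HOX genes, which set position along the body axis, were higher in 6 of 27 and lower in 0 (22.2%, median 0.14, 21 of 27 positive). HOXC10 measured 8.85 and 8.89 with the PAXIP1-AS1 siRNA, against 8.07 and 8.02 in the control at 100 nM (0.83, SE 0.080, adjusted p = 0.00229). Its groups lay well apart. HOXB8 (0.49), HOXB6 (0.48), HOXC8 (0.43), HOXB5 (0.39) and HOXD10 (0.27) followed, so members of the B, C and D clusters moved, and HOXB13 was lowest at -0.10. The count was 2 and 1 without PAXIP1-AS1 replicate 1 and replicate 2, 2 and 3 without control replicate 1 and replicate 2 at 100 nM, 4 without either array of LOC440173 siRNA 1, and 12 of the members left when dim genes were dropped. HOXC10 held in all of these.

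Chromatin lists lay on both sides of the 4.62% called among all genes. Of 35 histone methyltransferases and demethylases the Polycomb subunit SUZ12 was called (0.30, adjusted p = 0.0469; 2.86%, median -0.01). Of 26 deacetylase, acetyltransferase and bromodomain genes KAT2B (0.41) and KAT6B (0.27) were higher and the deacetylase SIRT2 lower (-0.32; 11.5% called, median -0.01). Of 69 histone genes 4 were higher and 0 lower (5.80%), the replication-dependent H3C1 (0.29), H2AC4 (0.26) and H4C2 (0.25), whose copies are nearly identical, and H3-3B (0.30). Of 480 ZNF genes 2 were higher and 8 lower (2.08%), and their median was -0.06, with 329 negative. All calls named in this paragraph were lost without at least 1 of the 4 compared arrays.

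Adhesion and matrix genes included the largest single changes, while the medians of their lists were small. Below the median level, where few genes were called, lay 21 of 29 integrins, 42 of 53 laminins and collagens and 19 of 29 metalloprotease and TIMP genes. Of 29 integrins ITGA8, ITGAV (0.70, adjusted p = 0.000663) and ITGB8 (0.27, adjusted p = 0.0362) were higher and 0 lower (10.3%, median 0.04). ITGAV, the alpha V chain that binds matrix proteins with several beta chains, measured 9.62 and 9.66 with the PAXIP1-AS1 siRNA, against 8.92 and 8.95 in the control at 100 nM. Nephronectin (NPNT), a ligand of ITGA8 in kidney development that was looked up after its receptor had been seen, was higher by 0.43 (adjusted p = 0.0229). Of 53 laminins and collagens LAMC1 (0.68) and LAMA4 (0.32) were higher and LAMB1 lower (-0.23), with a median of -0.06. Of 34 focal adhesion genes PARVB alone was called (-0.26), and 23 were negative. Among 46 actin genes ACTA2 and the actin nucleation promoter WASF2 (-0.29) were lower, and the Arp2/3 subunits ACTR3 (0.40) and ARPC3 (0.32) higher (8.70%, median -0.03). Among 29 metalloprotease and TIMP genes ADAM9 was higher and ADAM19 and ADAMTS1 lower (-0.36 each). ITGA8, ITGAV, LAMC1, ACTA2 and ADAM9 held without each compared array, and the other calls of this paragraph were lost without at least 1.

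Neuronal genes of HEK-293 cells moved in both directions. Of 34 neurofilament and presynaptic genes 3 were lower and 0 higher (8.82%, median -0.05). Besides NEFL these were NEFM, the medium neurofilament chain, which measured 9.67 and 9.74 with the PAXIP1-AS1 siRNA, against 10.28 and 10.18 in the control at 100 nM (-0.52, SE 0.064, adjusted p = 0.00568), and the vesicle priming factor UNC13B (-0.30). NEFL and NEFM are also the 2 called genes among the 8 markers of the line. Of 61 axon guidance genes 5 were higher and 0 lower (8.20%, median -0.02): the ephrin receptor EPHA7 (0.74, adjusted p = 0.00148), the semaphorins SEMA3D (0.56) and SEMA3C (0.46), the receptor ROBO2 (0.55) and its ligand SLIT2 (0.28). NEFL and EPHA7 held without each compared array, and the others lost the call without at least 1. Of 23 kidney development factors EYA1 was called (-0.34, adjusted p = 0.0207), a call also lost in that way.

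Of 189 microRNA genes 2 were called, both higher (1.06%). MIR218-1 measured 9.43 and 9.55 with the PAXIP1-AS1 siRNA, against 8.71 and 8.88 in the control at 100 nM (0.70, SE 0.078, adjusted p = 0.00402). It lies in an intron of SLIT2, so signal from the precursor and from the host transcript cannot be told apart. MIRLET7G measured 7.05 and 7.30, against 6.62 and 6.59 in the control (0.57, SE 0.11, adjusted p = 0.0285). Groups of neither gene overlapped, and both lost the call without at least 1 compared array, MIR218-1 by a narrow margin. The mature sequences are given because the seed, bases 2 to 8 in capitals, sets which messengers each microRNA pairs with. They are RefSeq entries of GRCh38.p14 at chr4:20528299-20528319 on the plus strand for the first and chr3:52268336-52268357 on the minus strand for the second.
hsa-miR-218-5p: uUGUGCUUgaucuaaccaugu
hsa-let-7g-5p: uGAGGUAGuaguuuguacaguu
The seeds differ. Probe sets of microRNA genes on this kind of array read longer transcripts, and mature microRNA was not measured.

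Vesicle traffic was represented among the largest rises and also held falls. Of 60 RAB GTPases 5 were higher and 1 lower (10.0%, median -0.01). Besides RAB9A the higher ones were RAB31, which acts between the Golgi and endosomes (0.89), RAB8B of the exocytic route (0.88), RAB18 (0.54) and RAB3A (0.31), and the recycling endosome GTPase RAB11A was lower (-0.44). RAB31 measured 10.60 and 10.65 with the PAXIP1-AS1 siRNA, against 9.67 and 9.81 in the control at 100 nM, and the groups did not overlap. Of 75 ESCRT, VPS and sorting nexin genes 3 were higher and 5 lower (10.7%, median -0.02). The ATPases VPS4A (0.96, adjusted p = 0.000274) and VPS4B (0.57), which disassemble ESCRT filaments, and SNX10 (0.45) rose, and the filament subunits CHMP1A (-0.34) and CHMP2A (-0.30) with SNX29 (-0.35), SNX17 (-0.27) and VPS52 (-0.21) fell. Of 49 coat and translocon genes 5 were higher and 1 lower (12.2%, median -0.01). SEC61B, a subunit of the protein-conducting channel, measured 11.46 and 11.52, against 10.55 and 10.57 in the control (0.93, SE 0.067, adjusted p = 0.000626). The cargo receptors TMED5 (0.57) and TMED3 (0.48), SEC62 (0.36) and SEC22C (0.22) were higher and the channel paralogue SEC61A2 lower (-0.26). Of 40 lysosomal genes the sulfatase ARSB was higher (0.45) and the enzymes ARSA (-0.33) and TPP1 (-0.30) lower. RAB9A, RAB31, RAB8B, VPS4A, SEC61B, TMED5 and ARSB held without each compared array, and the other calls here were lost without at least 1.

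The initiation factors and cytosolic ribosomal proteins had called shares above the 4.62% of all genes, and the other translation and RNA lists described here lay below it. Of 50 initiation factor genes 6 were higher and 0 lower (12%), yet their median was -0.02 and 30 were negative. They included the scaffold EIF4G1 (0.40), EIF5A2 (0.39), the eIF2 alpha subunit EIF2S1 (0.34) and EIF2D (0.32). The other 2 were EIF2A (0.27) and EIF2AK2 (0.37), a kinase that entered the family by its name and is also counted among the interferon response genes. The count was 0 without any 1 of the 4 compared arrays. Of 65 cytosolic ribosomal protein genes 3 were higher and 2 lower (7.69%, median -0.01). RPS15 (0.40), RPL41 (0.35) and RPL7L1 (0.43) rose, and the paralogues RPL22L1 (-0.72) and RPS27L (-0.58) fell; these families have many processed copies, so their probe sets are uncertain. Of 72 mitochondrial ribosomal genes 2 were higher and 1 lower. Of 81 heat shock and DNAJ genes DNAJC15, HSPA13 (0.65) and DNAJB4 (0.58) were higher and 0 lower. The splicing regulator MBNL1 measured 10.83 and 10.82 with the PAXIP1-AS1 siRNA, against 10.26 and 10.28 in the control at 100 nM (0.56, SE 0.045, adjusted p = 0.00102), among 114 splicing genes of which 3 were higher and 1 lower. Of 192 small nucleolar and Cajal body RNAs 4 were higher and 0 lower (2.08%), led by SCARNA12 (0.62). MBNL1 and DNAJC15 held without each compared array, and the other calls here were lost without at least 1.

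Genes that meet foreign or short RNA were examined because both groups received duplex RNA. Of 37 interferon response genes 1 was higher and 1 lower (5.41%, median -0.03). These were the RNA-activated kinase EIF2AK2 (0.37, adjusted p = 0.047) and the signalling adaptor MAVS (-0.25, adjusted p = 0.043). The reporters of interferon action ISG15 (-0.04), IFIT1 (-0.09) and MX1 (-0.09) did not pass. Of the 37 genes 29 lay below the median level, where at most 2.2% of a level class was called. A response common to both groups would not show in this comparison. Of 23 small RNA genes 3 were higher and 1 lower (17.4%, median 0.07). The silencing effectors TNRC6B (0.49), TNRC6A (0.33) and AGO2 (0.29) rose and TNRC6C fell by 0.28. The count of 3 rises was 0 without either PAXIP1-AS1 array or control replicate 1 and 1 without control replicate 2 at 100 nM, and EIF2AK2, MAVS and TNRC6C also lost their calls.

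Signalling lists held a few called members each. Of 24 Hippo genes 4 were higher and 0 lower (16.7%, median 0.01): the coactivators YAP1 (0.25) and WWTR1 (0.36), the kinase STK4 (0.23) and its partner MOB1A (0.54). Of 27 Notch genes NOTCH2 was higher (0.45), and NOTCH1 (-0.33), the protease subunit PSEN2 (-0.35) and the target HEY1 (-0.26) were lower (14.8%, median -0.07). Of 35 TGF-beta and BMP genes the co-receptor TGFBR3 was higher (0.39) and BMP2 (-0.48) and the BMP target ID2 (-0.31) lower. Of 30 immediate early and ERK feedback genes the phosphatase DUSP1 fell by 0.47 and SPRED1 rose by 0.52. The NF-kappaB subunit RELA was higher (0.47, adjusted p = 0.00303) and the cytokine LIF lower (-0.44). The phosphatase DUSP3 fell by 0.45 (adjusted p = 0.00243) and PTPN14, a partner of YAP1, rose by 0.56. RELA and DUSP3 held without each compared array, and the other calls here were lost without at least 1, with a Hippo count of 0 without any 1 of the 4.

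Across all 77 lists and families, 12 had a called share of at least 3 times the background (13.9%), 56 had at least 2 called members and 6 had none. Those with none were the PAXIP1 complex, calcineurin genes, alpha-arrestins, keratins, septins and V-ATPase subunits. Olfactory receptors, which this line hardly expresses, were called in 0.294% of 340. Long non-coding RNA genes were called in 0.943% of 424, with SPEN-AS1 (0.38) and GRIK1-AS2 (0.60) higher and ZBTB11-AS1 (-0.23) and LINC01547 (-0.29) lower. Lists differ in how brightly their genes are expressed, and 3 of the 27 p53 targets and 5 of the 29 ATF4 genes lay below the median level.

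**Figure D5:**
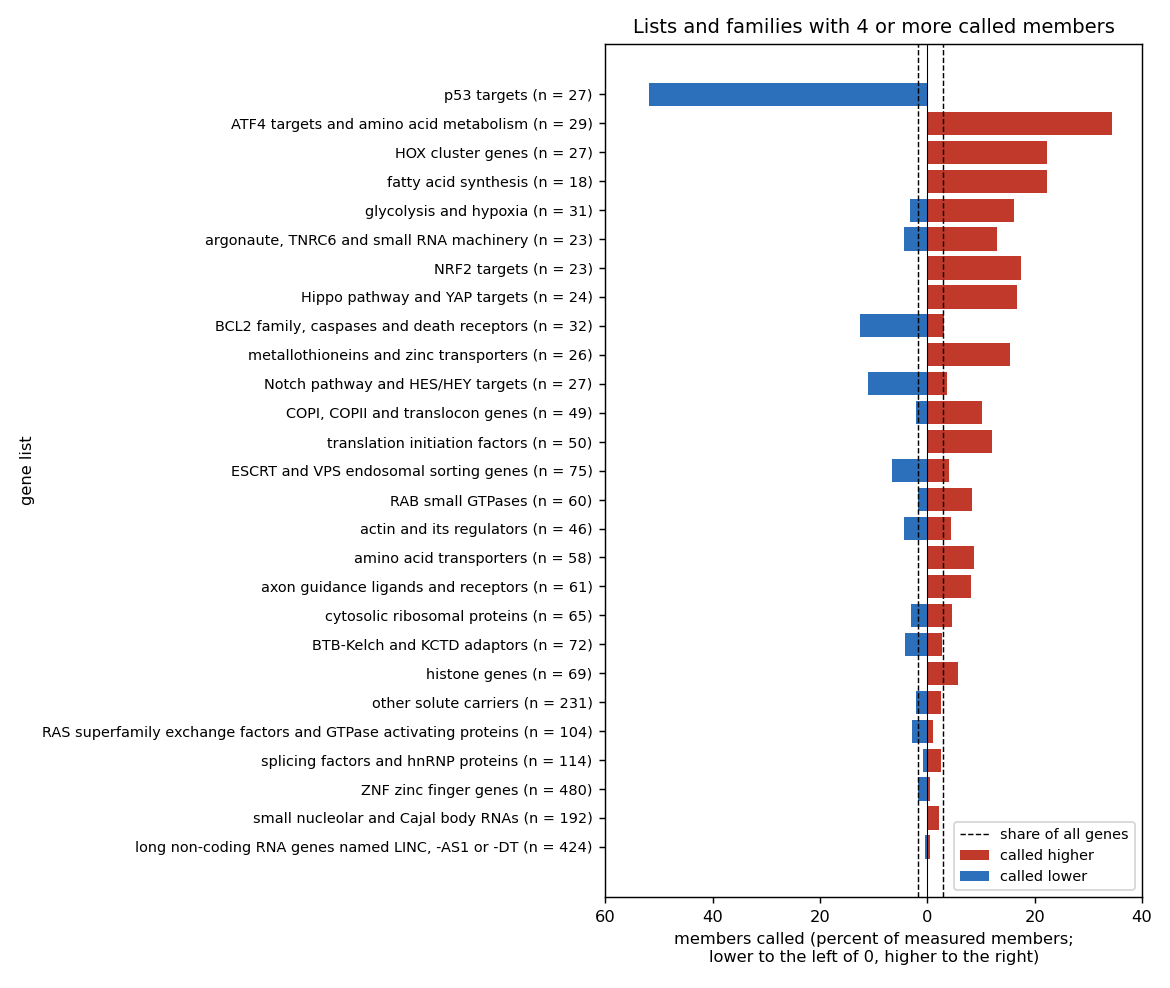
Bars give, for each list or family with at least 4 called members, the percent of measured members called lower (blue, to the left of 0) and higher (red, to the right); dashed lines mark the shares of all genes, 1.76% lower and 2.86% higher. The p53 targets reached 51.9% lower and the ATF4 list 34.5% higher.

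The same genes were read with the siRNAs against LOC440173, which share no array with this comparison. Those siRNAs called 5301 genes (28.8%) and 5512 genes (30.0%). Of the 850 genes called with the PAXIP1-AS1 siRNA, 400 were called the same way with LOC440173 siRNA 1, which is 47.1% of the 850 and 7.55% of the 5301. Called the opposite way were 150 (17.6% of the 850). With siRNA 2 the figures were 442 the same way (52.0% of the 850 and 8.02% of the 5512) and 146 opposite (17.2%). Among all genes siRNA 1 and siRNA 2 called 12.1% and 12.5% higher and 16.7% and 17.4% lower. The opposite shares were near these and the same-way shares above them. Higher with all 3 target siRNAs were 144 genes and lower with all 3 were 103, while 122 of the 850 were called with neither LOC440173 siRNA. The shares of all genes called with both or with neither LOC440173 siRNA were not counted. The PAXIP1-AS1 effect minus the average of both LOC440173 effects was called for 351 of the 850 (41.3%) and 2129 of all genes (11.6%). Without PAXIP1-AS1 replicate 1 and replicate 2 it was called for 1067 and 923 genes, without control replicate 1 and replicate 2 at 100 nM for 1033 and 1193, and under a required 1.2-fold minimum for 361. The share among the called genes of each of the 4 fits without a compared array lay between 41.7% and 43.6%, and it was 30.3% (20 of 66) under the minimum.

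By gene the responses split. CA2 differed by 1.39 with the PAXIP1-AS1 siRNA, against 1.21 and 1.10 with LOC440173 siRNA 1 and siRNA 2, and the difference was not called (0.23, adjusted p = 0.055). HSD17B10 (1.01, against 1.12 and 1.18) and HINT2 (1.01, against 1.06 and 0.95) were likewise called with every target siRNA. ITGA8 differed by 1.60, against 0.35 and -0.28, and the difference of 1.57 was called (adjusted p = 0.0012). RNF167 (1.15, against 0.39 and 0.39) and SHMT2 (1.32, against 0.78 and 0.71) rose with each, and the excess with the PAXIP1-AS1 siRNA was called (0.76 and 0.58). ACTA2 fell by 1.85, against falls of 0.56 and 1.47, and the difference of -0.84 was called (adjusted p = 0.0012). SCML1 was -0.73, against -0.52 and 0.49. RAP1B, whose call was lost with the mean of its several probe sets, was -0.74, against 0.07 (not called) and 0.32.

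The p53 and ATF4 lists differed in how they compared. With LOC440173 siRNA 1 and siRNA 2, 13 and 16 of the 27 p53 targets were lower, where 16.7% and 17.4% of all genes were. The difference from the PAXIP1-AS1 effect was called for 6 of 27, against 11.6% of all genes. CDKN1A measured -0.75 with the PAXIP1-AS1 siRNA, against -0.39 and -0.30 with LOC440173 siRNA 1 and siRNA 2, and its difference of -0.40 was called (adjusted p = 0.015). EDA2R measured -1.10, against -0.92 and -0.98, with no called difference. In the ATF4 list 18 of 29 were lower and 2 higher with LOC440173 siRNA 1, while 7 were lower and 12 higher with siRNA 2. Of all genes 12.1% and 12.5% were higher with siRNA 1 and siRNA 2, and 16.7% and 17.4% were lower. The difference was called for 17 of the 29, against 11.6% of all genes. SLC7A11 measured 0.83 with the PAXIP1-AS1 siRNA, against -2.38 and 0.41, and its difference of 1.82 was called (adjusted p = 0.000245). DDIT4 measured 0.99, against -0.29 and 0.66, with a called difference of 0.80. Dose, target and siRNA sequence all differ between these experiments and cannot be told apart.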

How the data were processed

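Gene expression was measured on Affymetrix arrays in 10 samples of HEK-293 cells, grouped by their labels. The authors deposited log2 values for each probe set, and the submitters' processing notes name RMA and limma, with no versions. No build or filter is given in the sources used here, and scanner background is not known. Precision is limited by the number of arrays. A platform annotation gave 1 gene symbol for 19158 of 32321 probe sets, several for 1388 and none for 11775 not listed. A RefSeq gene table (GRCh38.p14) held 18376 gene IDs, lacked 29 and changed 0 symbols. For 637 genes with several probe sets that with the highest mean over all 10 arrays was kept, which left 18404 genes.

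A limma fit (version 3.58.1, R 4.3.3) with a mean per group over all 10 arrays and eBayes (5 residual and 2.87 prior degrees of freedom) gave two-sided p-values, adjusted by Benjamini-Hochberg across the 18404 genes and called under 0.05. SE is that of the fit. The code was tested on simulated data. Named genes were the 15 largest rises and falls among called genes with separate groups and a higher group mean at or above 7.66, PAXIP1 with 10 neighbours on each side, and up to 4 called members and the extremes of each of 77 lists; in several lists further called members are named, chosen after their values were seen. The members and lists were chosen with earlier results of these data known. Alternatives covered normalization, probe set and level filters, the samples and weights of the fit, a minimum fold, the replicate number as a block, the controls and each array left out. Lists are described by counts and medians, with no test.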

Additional observations from a re-analysis of the deposited data

Results flagged for a closer look

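CFAP263, a cilium and flagellum gene, stood apart between the experiments: it was lower with the PAXIP1-AS1 siRNA (-0.71) and measured 0.31 and 0.43 with LOC440173 siRNA 1 and siRNA 2 (mean 0.37, adjusted p of the mean = 0.0233). The difference of -1.07 (SE 0.14) was called by limma (adjusted p = 0.00377). Its fall was lost without at least 1 of the compared arrays (adjusted p up to 0.109).

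Probe sets without a single gene symbol were left out of the gene comparison. When every probe set was tested, 62 of these 13163 were called, 40 higher and 22 lower, and the largest change was 2.08 in size on the log2 scale.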

How the results depend on the processing

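The count of 850 called genes moved by more than 1.5 times under 14 of 21 alternatives. No called gene reversed, which most alternatives could not have shown. It was 1879 with dim genes left out, 1784 with an intensity trend and robust prior, 1544 with array weights, 1349 with all 4 control arrays, 432 with every probe set on its own, 181 with only the compared groups and 66 under a 1.2-fold minimum. Leaving out 1 array gave 110 to 895. Of the 850 genes 65 stayed called under all 20 alternatives and 179 with only the compared groups. The share of higher calls was 61.9%, and over the alternatives it ran between 53% with all 4 control arrays and 78.8% under the 1.2-fold minimum, with 75.7% for only the compared groups, 69.8% after centring on array medians and 65.5% to 77.0% without 1 compared array. Replicate numbers are shared between groups, and deviations of same-numbered arrays correlated positively in all 10 pairs of groups (r from 0.07 to 0.53, and 0.29 between the compared groups). They were under 0.1 in the 4 pairs with LOC440173 siRNA 1, and no label says what a number marks, so the numbers were not taken as pairs. With the number as a replicate block 1325 genes were called, all 850 among them. The number of arrays and the unknown signal over background limit what dim genes can show. Array weights were equal for both arrays of each group, which a fit of 1 mean to 2 arrays must give.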
